A study of Mus musculus with 4 samples.

Results

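The 34 genes described here are immediate-early genes and genes known to be induced when tissue is dissociated, measured in mesenchymal stromal cells (MSCs) of adult mouse bone marrow. They were found by gene symbol from a list, a rule that uses no measured value, and all 34 of the 56980 genes in the count table were found, 1 row for each symbol. The libraries came from 4 wild-type male C57BL/6J mice of an in-house inbred colony, aged 14 weeks, and all 4 belong to a single group, adult MSCs, with no treatment and no mutant allele. For each mouse, femurs were flushed and then digested at 37 °C for 30 min, as the study describes for niche cells, and 100 cells that were CD45-, Ter119-, CD31-, CD51+, PDGFRa+ and Sca1- were sorted into 1 library. Full-length cDNA was primed with oligo-dT, amplified by PCR and fragmented by tagmentation. No library of undigested marrow was analysed here, so expression of these genes in the living marrow and expression that began during digestion and sorting cannot be told apart.

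Immediate-early genes are transcribed within minutes of a stimulus by factors that are already present in the cell, so no new protein is needed for their induction. Growth factor, stress and cytokine signals reach them through the ERK, JNK and p38 kinases, through serum response factor and its partners, through CREB and through NF-kB. Many of their mRNAs are short-lived, because AU-rich elements in the 3′ UTR recruit decay factors, and several of the encoded proteins shut off the pathway that induced them. In the skeleton the family is best known for AP-1, the dimer of Fos and Jun proteins, whose members govern osteoclast and osteoblast differentiation. Enzymatic release of cells from tissue is itself a known inducer of Fos, Jun, Egr1 and their relatives.

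The libraries held between 22738604 and 43545349 counts on genes, and mouse 2 had the fewest genes with a count, 16109 beside 18683 or more in the others. Expression is given as TPM, the count divided by the merged exon length of the gene and scaled to 1000000 per library, and values are listed in the order of mice 1, 2, 3 and 4. The genes of the sort antigens matched the gate in that Pdgfra had 39.8 ± 7.29 TPM (mean ± SD, n = 4) and Itgav, which encodes CD51, had 15.7 ± 2.51 TPM, while Ptprc (CD45) was at most 0.264 TPM and Pecam1 (CD31) at most 0.218 TPM. Ly6a, the Sca1 gene, was at 0.0472, 8.95, 0 and 11.6 TPM, so the libraries of mice 2 and 4 held transcripts of an antigen the gate selected against. The niche genes Cxcl12, Lepr, Prrx1, Foxc1, Ebf3 and Kitl were all above 1 TPM in every mouse, and the osteoblast genes Bglap, Ibsp, Sp7 and Alpl summed to between 77792 and 168024 TPM. These are bulk libraries, in which fewer cells of a type and less RNA per cell cannot be told apart.

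The immediate-early genes were among the higher genes of these MSCs. A median above 1 TPM over the 4 mice, the cutoff the study used, was passed by 29 of the 34, where 22.9% of all genes with a length and 44.2% of the protein-coding genes passed. Above 1 TPM in every mouse were 26 of the 34, against 15.4% of all genes and 30.1% of protein-coding genes. The median exceeded 10 TPM for 24, against 10.4% and 21.9%, and exceeded 100 TPM for 13, against 1.9% and 4.11%. The median of the 34 medians was 50.8 TPM. It was 0.135 TPM over the protein-coding genes, of which 29.4% had 0 counts in every mouse, and 8.35 TPM over all genes past the cutoff. Fos was the highest, at rank 61 of all genes, and 7 of the 34 were among the 500 highest genes. All 34 together summed to 3595, 6084, 8164 and 3301 TPM, or 5286 ± 2289 TPM (SD, n = 4). They took 0.376%, 0.651%, 0.847% and 0.381% of the counts of each library, and Fos supplied between 27.1% and 38.1% of their summed TPM. The sums of mice 2 and 3 lay above those of mice 1 and 4.

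**Figure D1:**
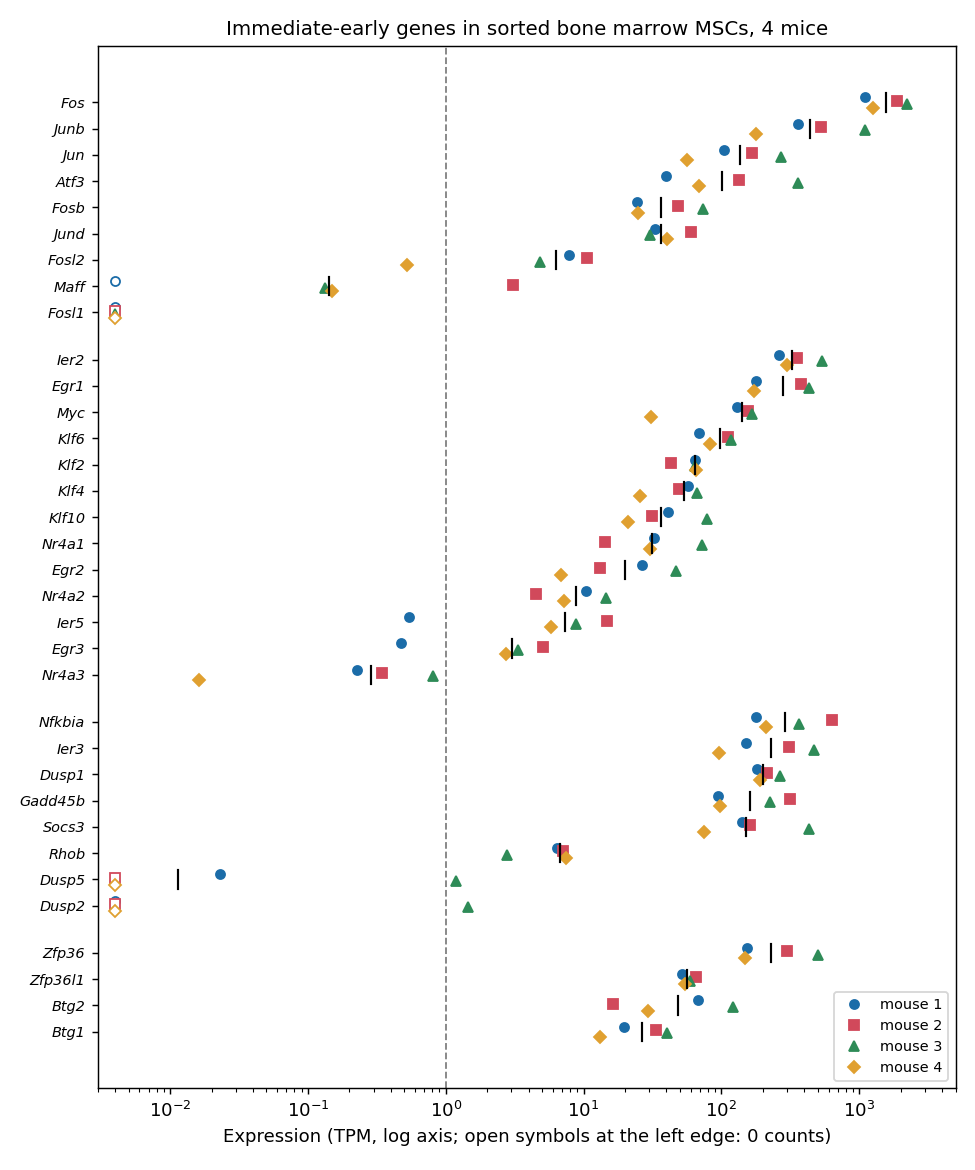
Expression of the 34 genes in each of the 4 mice, in TPM on a log axis, grouped by role from AP-1 genes (top) to mRNA decay and Btg genes (bottom). Each symbol is 1 mouse, black ticks are medians, open symbols at the left edge mark 0 counts and the dashed line is the cutoff of 1 TPM. Fos reached 1104 to 2216 TPM, and Nr4a3, Maff, Dusp5, Dusp2 and Fosl1 had medians below the cutoff.

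By structure, the 34 genes were short and had few introns. The median number of exons in the longest transcript was 3, beside 8 in the protein-coding genes past the cutoff, and the median gene span was 5211 bases, beside 23697 bases. Jun, Junb, Jund, Ier2, Ier5 and Rhob had a single exon, which is 17.6% of the 34 and compares with 5.88% of the protein-coding genes past the cutoff.

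The 3′ UTRs of the group, each taken from the transcript with the longest coding sequence, were searched for the AU-rich heptamer TATTTAT and the pentamer ATTTA, which the heptamer contains. At least 1 heptamer was present in 21 of the 34 genes, or 61.8%, beside 27.5% of the protein-coding genes past the cutoff, and at least 2 were present in 11, or 32.4%, beside 9.04%. The median UTR of the group was longer, at 1193 bases beside 954, so the share was also read within bands of UTR length. Above 500 and up to 1000 bases it was 9 of 13, or 69.2%, beside 19.9%. Above 1000 and up to 2000 bases it was 7 of 11, or 63.6%, beside 32.7%, and above 2000 bases it was 5 of 8, or 62.5%, beside 54.5%. The difference was thus small among the longest UTRs, and neither UTR of up to 500 bases, those of Junb and Myc, held the heptamer. Ier3 held 4 heptamers, and Dusp1, Zfp36, Zfp36l1 and Fosl2 held 3 each.

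**Figure D2:**
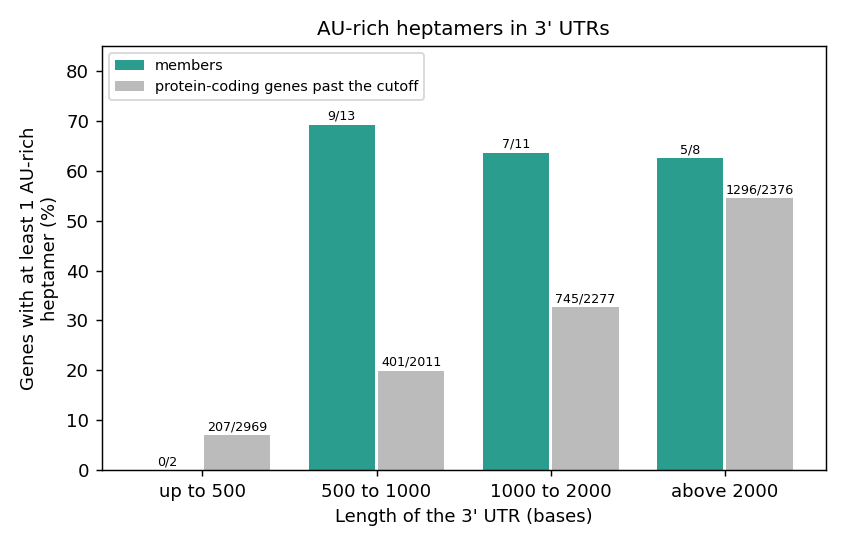
Share of genes (%) with at least 1 TATTTAT heptamer in the 3′ UTR, by length of the UTR in bases, for the 34 immediate-early genes (green) and the protein-coding genes past the cutoff (grey). Numbers above the bars are genes with the heptamer out of genes in the band. The green bar is 69.2% and the grey bar 19.9% at 500 to 1000 bases, and they are 62.5% and 54.5% above 2000 bases.

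The elements of 6 genes with medians above 100 TPM are shown because they are the part of these mRNAs that decay factors such as the protein of Zfp36 are known to read. Each line gives 30 bases of the 3′ UTR in the direction of transcription, from GENCODE M21 on GRCm38, with the heptamers in capitals. In Ier3, Zfp36 and Socs3 the window holds 2 heptamers.
Fos, chr12:85477102-85477131, plus strand: gtgttttcaattTATTTATtaagatggatt
Nfkbia, chr12:55489608-55489637, minus strand: aggaccacgtttTATTTATtgtgcttttga
Ier3, chr17:35822484-35822513, plus strand: ctaattaaTATTTATgTATTTATgtatatc
Zfp36, chr7:28376958-28376987, minus strand: ccttTATTTATgacgacttTATTTATtgta
Dusp1, chr17:26506159-26506188, minus strand: ggagctggtcctTATTTATttaacaccccc
Socs3, chr11:117966136-117966165, minus strand: ttgcacataTATTTATATTTATactcagaa
Highly expressed genes without the heptamer included Junb, Ier2, Egr1, Gadd45b and Myc.

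Promoters, taken from RefSeq on GRCm38.p6 as 250 bases before to 50 bases after each start, were matched for 28 of the 34 genes. Egr1, Egr3, Fosl1, Ier2, Klf10 and Myc had no match. The cAMP response element TGACGTCA, the site of CREB, was present in Btg2, Dusp1 and Maff, which is 10.7% of the 28 beside 2.03% of all 27025 genes with a promoter (1.79% of all promoters). The CArG box, the site of serum response factor, was present in Egr2, Dusp5 and Zfp36, also 10.7%, beside 1.81% of genes (1.63% of promoters). An NF-kB site was present in Egr2, Fos, Fosb, Fosl2, Ier3, Maff, Nfkbia and Nr4a1, or 28.6% beside 9.55% of genes (8.46% of promoters). For the AP-1 site TGANTCA the count was 1 of 28, in Zfp36l1, or 3.57% beside 8.97% of genes (7.81% of promoters). The EGR site GCGTGGGCG was present in Maff alone, 3.57% beside 0.707% of genes (0.612% of promoters), and the TATA motif TATAAA in 5 genes, 17.9% beside 9.77% (8.32% of promoters). Both strands were read except for TATAAA. A CArG box can contain TATAAA, and otherwise none of these motifs contains another. A match describes letters in the window and is not evidence that a factor binds. Sites more than 250 bases before a start were not searched, so a gene without a match may still have the element.

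The 3 stretches below show the response elements of Dusp1, Btg2 and Egr2, whose medians were above 10 TPM, as 50 bases of RefSeq promoter on GRCm38.p6 in the direction of transcription, with the motif in capitals. The element starts 143 bases before the start site of Dusp1, 166 bases before that of Btg2 and 72 bases before a start site of Egr2.
Dusp1, chr17:26508587-26508636, minus strand, cAMP response element: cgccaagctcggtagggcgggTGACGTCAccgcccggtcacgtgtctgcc
Btg2, chr1:134079293-134079342, minus strand, cAMP response element: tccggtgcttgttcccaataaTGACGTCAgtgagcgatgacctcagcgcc
Egr2, chr10:67537777-67537826, plus strand, CArG box: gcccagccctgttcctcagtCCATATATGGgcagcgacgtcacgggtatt
The box of Zfp36 overlaps an annotated exon and is not shown, and of the boxes of Egr2 a single one is shown. The levels of these 3 genes differed, with medians of 202 TPM for Dusp1, 48.3 TPM for Btg2 and 19.9 TPM for Egr2.

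Of the 9 genes of the AP-1 group, 7 passed the cutoff, and the group summed to 2551 ± 1152 TPM (SD, n = 4). Fos, the subunit that pairs with Jun proteins to form AP-1, had 45673, 49633, 90079 and 30584 counts, or 1104, 1897, 2216 and 1258 TPM, a mean of 1619 ± 526 TPM. It was high in every mouse, and its highest value was 2.01 times its lowest. Junb, a Jun protein with a strong role in bone and myeloid cells, had 359.7, 525, 1103 and 178 TPM, a mean of 541 ± 400.5 TPM. Jun itself had 105, 167, 271 and 56.8 TPM, a mean of 150.1 ± 92.3 TPM. Both genes were highest in mouse 3, next in mouse 2 and lowest in mouse 4. Atf3, a stress-induced factor of the ATF and CREB family, had 39.5, 135, 357 and 68.4 TPM. With a mean of 150.0 ± 144 TPM it had the largest SD relative to its mean of the genes past the cutoff, and mouse 3 was 9.05 times mouse 1. Fosb, a relative of Fos, had 24.6, 48.4, 73.7 and 24.7 TPM, a mean of 42.9 ± 23.4 TPM. Mice 2 and 3 were again the higher pair.

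Jund, often described as the constitutive Jun gene, did not follow this order. It had 33.0, 60.7, 30.3 and 40.1 TPM, a mean of 41.0 ± 13.8 TPM, and was lowest in mouse 3. Its level is uncertain, because 52.6% of its exonic bases are shared with Gm11175 on the opposite strand, and pairs that overlap more than 1 gene are left unassigned by default. Gm11175 itself had 0 counts in every mouse. Over the unshared bases alone, the mean of Jund was 83.9 TPM. Fosl2, which encodes Fra-2, had 7.86, 10.6, 4.81 and 0.520 TPM, a mean of 5.96 ± 4.34 TPM, and was above 1 TPM in 3 of 4 mice. Maff, a small Maf protein without an activation domain, was below the cutoff, with 0, 89, 6 and 4 counts. Fosl1, which encodes Fra-1 and is a known regulator of bone matrix, had 0 counts in every mouse, where 3 counts correspond to 0.0839, 0.133, 0.0854 and 0.143 TPM. Among the protein-coding genes 29.4% had 0 counts in every mouse. Fosl1 shares 57.2% of its exonic bases with Ccdc85b on the opposite strand, which had between 517 and 1207 counts, so its level could be read only from the remaining bases.

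Within the families a single gene supplied most of the expression. Fos made up 97.2 ± 0.614% of the TPM of the Fos family (mean ± SD, n = 4), Fosb 2.44 ± 0.560% and Fosl2 0.371 ± 0.299%. Junb made up 71.3 ± 5.74% of the Jun family, Jun 20.8 ± 1.23% and Jund 7.85 ± 5.14%. These 3 shares carry the uncertainty of Jund, which had 67.7, 124, 61.3 and 82.4 TPM over its unshared bases. In mouse 4 that was above Jun, at 59.7 TPM over unshared bases, while Junb remained the highest in every mouse. The share of Jun varied little, from 19.3% to 22.2%, although the summed Jun family was 275 TPM in mouse 4 and 1405 TPM in mouse 3. Egr1 made up 91.6 ± 4.15% of the Egr family and Nr4a1 78.3 ± 3.79% of the Nr4a family. The Klf genes were more even, with Klf6 at 38.8 ± 7.73%, Klf2 at 24.8 ± 7.27%, Klf4 at 19.8 ± 4.81% and Klf10 at 16.5 ± 5.77% of their sum.

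**Figure D3:**
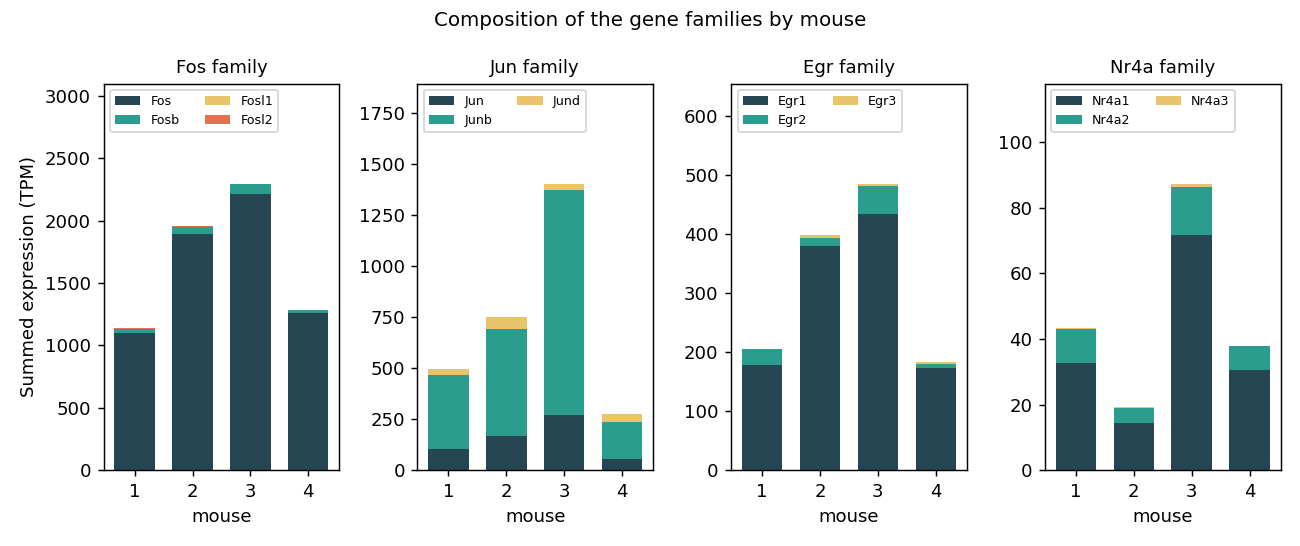
Summed expression in TPM of the Fos, Jun, Egr and Nr4a families in each of the 4 mice, stacked by gene, with a separate scale for each family. The bars show that Fos, Junb, Egr1 and Nr4a1 were the largest part of their family in every mouse, at mean shares of 97.2%, 71.3%, 91.6% and 78.3%. The part of Jund is uncertain because of its shared exonic bases.

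Differences within the families were tested on log2(TPM + 1) within each mouse, over 9 pairs. Fos exceeded Fosb by 5.30 ± 0.31 (SD of the within-mouse difference, n = 4), and Fos was between 30.1 and 50.9 times Fosb in TPM. Junb exceeded Jun by 1.76 ± 0.18, with TPM ratios of 3.41, 3.14, 4.08 and 3.14. The ratio was thus nearly the same in mice 2 and 4, where Junb itself was 525 and 178 TPM. The difference of Jund minus Junb was -3.44 ± 1.26, and on unshared bases -2.496. Egr1 exceeded Egr2 by 3.77 ± 0.99, Nr4a1 exceeded Nr4a2 by 1.80 ± 0.34, and Zfp36 exceeded Zfp36l1 by 2.05 ± 0.75. Klf6 exceeded Klf4 by 0.97 ± 0.59, the smallest of the differences that had the same sign in all mice. Dusp1 exceeded Dusp5 by 7.43 ± 0.35, a value that depends on the added 1 because Dusp5 had 0 or 1 count in 3 mice, and it was 10.04 with 0.1 added instead. In mouse 3, where Dusp5 had 51 counts, the TPM of Dusp1 was 225 times that of Dusp5. These 8 pairs differed in the same direction in 4 of 4 mice, and each had p = 0.125 in a two-sided exact permutation test of the signs of the within-mouse differences, or 0.141 after Benjamini-Hochberg adjustment over the 9 pairs. That p is the smallest 4 mice allow, so none of the pairs could pass 0.05, and each of these mean differences was larger than its SD. Btg2 exceeded Btg1 in 3 of 4 mice, by 0.85 ± 1.25, which was within the spread between mice (exact permutation p = 0.25, adjusted p = 0.25).

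Among the other transcription regulators 12 of 13 passed the cutoff. Ier2, a nuclear early-response protein, had 264, 353, 539 and 299 TPM, a mean of 364 ± 122 TPM. Egr1, a zinc-finger factor induced by serum and growth factors, had 178, 379.6, 434 and 174 TPM, a mean of 291 ± 135 TPM. In Egr1 mice 2 and 3 formed a high pair and mice 1 and 4 a low pair, and in Ier2 the same pairs held with a smaller gap. Myc, which drives growth and ribosome production, had 129, 155, 168 and 30.8 TPM, a mean of 121 ± 62.1 TPM. Its level was close in 3 mice and 5.45-fold lower in mouse 4 than in mouse 3. Egr2 had 26.6, 13.1, 47.1 and 6.86 TPM, a mean of 23.4 ± 17.8 TPM, and Egr3, a further member, had 0.477, 5.06, 3.35 and 2.72 TPM. Egr2 was thus higher in mouse 1 than in mouse 2, while Egr1 and Egr3 were higher in mouse 2 than in mouse 1.

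Of the Krüppel-like factors, Klf2, Klf6 and Klf4 were among the steadier genes and Klf10 was not. Klf6, known for its part in injury responses, had 68.7, 111, 117 and 82.8 TPM, a mean of 95.01 ± 23.1 TPM. Klf2, a flow- and statin-responsive factor of quiescent cells, had 64.8, 42.8, 64.1 and 65.6 TPM, a mean of 59.3 ± 11.04 TPM. The value of mouse 2 stood below the other three, which lay close together. Klf4, one of the pluripotency factors, had 57.1, 49.4, 67.0 and 25.7 TPM, a mean of 49.8 ± 17.6 TPM. Klf10, an early target of TGF-beta that is known in osteoblasts, had 41.1, 31.6, 78.6 and 21.2 TPM, a mean of 43.1 ± 25.03 TPM. In both, mouse 4 was the lowest and mouse 3 the highest.

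The Nr4a genes encode orphan nuclear receptors that respond to cAMP and calcium signals. Nr4a1 had 32.6, 14.4, 71.9 and 30.6 TPM, a mean of 37.4 ± 24.4 TPM, and Nr4a2 had 10.5, 4.50, 14.7 and 7.22 TPM, a mean of 9.21 ± 4.37 TPM. Both were highest in mouse 3 and lowest in mouse 2, the mouse in which Fos, Egr1 and Nfkbia were high. Nr4a3 was below the cutoff in every mouse, with 24, 23, 84 and 1 counts. Ier5, an early-response nuclear protein related to Ier2, had 31, 542, 500 and 198 counts, or 0.538, 14.9, 8.83 and 5.85 TPM, and was below 1 TPM in mouse 1 only.

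The signal inhibitors and survival genes passed the cutoff in 6 of 8 cases, and 5 of these had medians above 100 TPM. Nfkbia, which encodes IkBa, the inhibitor that holds NF-kB in the cytoplasm and is itself an NF-kB target, had 179.8, 639, 366 and 211 TPM, a mean of 349 ± 209.8 TPM. Mouse 2 was the highest, unlike in most genes of the group. Gadd45b, a stress-induced protein that acts on the p38 and JNK pathways and is also an NF-kB target, had 94.6, 315, 224 and 97.8 TPM, a mean of 183 ± 107 TPM, with the same order of mice. Ier3, a survival gene that responds to NF-kB, had 150.2, 310.0, 474 and 96.8 TPM, a mean of 258 ± 170.3 TPM, and was highest in mouse 3. Dusp1, the phosphatase that inactivates p38 and JNK, had 181, 214, 268 and 189.8 TPM, a mean of 213 ± 39.1 TPM. It was the steadiest of the 13 genes with medians above 100 TPM, with a highest value 1.48 times its lowest.

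Socs3, the inhibitor of signalling by IL-6 family cytokines through JAK and STAT3, had 141, 160.2, 433 and 74.6 TPM, a mean of 202 ± 158 TPM. Only mouse 3 was above 200 TPM. Rhob, an early-induced small GTPase, had 6.46, 7.16, 2.78 and 7.498 TPM, a mean of 5.97 ± 2.17 TPM, and like Jund it was lowest in mouse 3. The 2 other phosphatases of the list were near 0. Dusp2 had 0, 0, 50 and 0 counts and Dusp5, a phosphatase specific for ERK, had 1, 0, 51 and 0 counts. Both therefore rested on the library of mouse 3, at 1.44 and 1.19 TPM, and 3 counts in mouse 4 correspond to 0.145 TPM for Dusp2 and 0.117 TPM for Dusp5.

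All 4 genes of mRNA decay and of the Btg family were above 1 TPM in every mouse. Zfp36, which encodes tristetraprolin, the protein that binds AU-rich elements and recruits deadenylases, had 155, 301, 501 and 147 TPM, a mean of 276 ± 166 TPM. Its relative Zfp36l1 had 52.1, 65.9, 58.9 and 54.3 TPM, a mean of 57.8 ± 6.08 TPM, the smallest relative spread of the group. Zfp36 was thus 3.40-fold apart between its lowest and highest mouse and Zfp36l1 1.26-fold. Zfp36l1 shares 55.9% of its exonic bases with Gm26669 on the opposite strand, a gene not analysed here, and its level carries that uncertainty. Btg2, an antiproliferative protein that binds the same deadenylase complex and responds to p53, had 67.5, 16.5, 121 and 29.2 TPM, a mean of 58.6 ± 47.1 TPM. Btg1 had 19.7, 33.6, 40.6 and 13.2 TPM, a mean of 26.8 ± 12.5 TPM, and 6.24% of its longest transcript has a near-identical copy in Gm14519. Btg2 was lowest in mouse 2, where Btg1 was the higher of the pair.

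In the order of medians, most neighbours did not differ beyond their spread. Of the 28 neighbouring pairs among the 29 genes past the cutoff, 3 had the higher gene above the lower in all 4 mice, namely Fos over Junb, Socs3 over Myc and Klf6 over Klf2. The mean difference in log2(TPM + 1) exceeded its SD in 3 pairs, Fos over Junb at 1.82 ± 0.75, Klf6 over Klf2 at 0.66 ± 0.57 and Egr2 over Nr4a2 at 1.05 ± 0.76. The rank of Fos was therefore clear, and the order from Junb to Socs3 was not resolved by 4 mice.

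For the 29 genes past the cutoff, the coefficient of variation (CV) of TPM between mice was between 10.5% for Zfp36l1 and 95.9% for Atf3, with a median of 58.0%. The spread was read beside that of all genes of like mean level. Of the 12 genes with a mean from 100 to 1000 TPM, 11 had a CV above the median of all genes in that band, and the median CV was 60.1% beside 23.5% over 911 genes. Dusp1, at 18.3%, was the exception. Fos, the only one above 1000 TPM, had a CV of 32.5% beside 17.4%. From 10 to 100 TPM the medians were close, 46.8% over 11 genes beside 42.4%, and from 1 to 10 TPM the 5 genes had a lower median, 65.3% beside 89.6%. The larger spread was thus found among the members with a mean above 100 TPM. The bands were set by mean TPM without the median cutoff. The 8584 genes from 1 to 10 TPM can thus include genes whose mean rests on a single mouse. With 5 members there, that band does not settle how the lower members compare.

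Much of this spread was shared, with the library of mouse 3 high and those of mice 1 and 4 low. Among the 29 genes past the cutoff, 20 were highest in mouse 3, where 29.7% of all genes past the cutoff were highest. In mouse 2, 7 were highest, beside 26.1%, namely Nfkbia, Gadd45b, Jund, Zfp36l1, Ier5, Fosl2 and Egr3. Mouse 4 was the highest for 2, Klf2 and Rhob, beside 18.4%, and mouse 1 for 0, beside 25.7%. Lowest in mouse 4 were 12, beside 29.7%, and lowest in mouse 1 were 11, beside 22.1%. The corresponding counts were 4 in mouse 2, beside 35%, and 2 in mouse 3, beside 13.1%. With the 24 genes above 10 TPM alone, 19 were highest in mouse 3, beside 33.1% of all genes of that level, 4 in mouse 2, beside 24%, 1 in mouse 4, beside 15.3%, and 0 in mouse 1, beside 27.6%. Of these 24, 11 were lowest in mouse 4, beside 33.9%, 9 in mouse 1, beside 20.8%, 3 in mouse 2, beside 33.6%, and 1 in mouse 3, beside 11.8%.

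Measured as the deviation of log2(TPM + 1) from the mean of the gene over the 4 mice, the median of the 29 genes was -0.28, 0.29, 0.70 and -0.62. Over all genes past the cutoff it was 0.08, -0.06, 0.22 and -0.10, so part of the height of mouse 3 in TPM was common to these genes. TPM is a share of the library. The 10 genes with the most counts took 33.6%, 34.3%, 28.1% and 37.8% of the counts, lowest in mouse 3. Their part in this common height was not tested. In mouse 3, 27 of the 29 lay above their mean, beside 66.5% of all genes, and in mouse 4, 5 did so, beside 43.7%. In mouse 2 there were 22, beside 46.2%, and in mouse 1 there were 10, beside 55.8%. Dividing TPM by TMM factors gave -0.21, 0.30, 0.64 and -0.63 for the 29 genes. For all genes past the cutoff it gave 0.14, -0.06, 0.17 and -0.11. Dividing by DESeq2 size factors, taken relative to library totals, gave -0.24, 0.33, 0.60 and -0.60 beside 0.12, -0.03, 0.13 and -0.08. Both kinds of factor are estimated for counts and not for TPM, so these values are not a full TMM or DESeq2 scaling. Without the library of mouse 3, mouse 2 was highest for 21 of the 29 genes and the median CV fell to 43.2%. Neither value was computed over all genes without that library, so they cannot be read as particular to the 29.

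**Figure D4:**
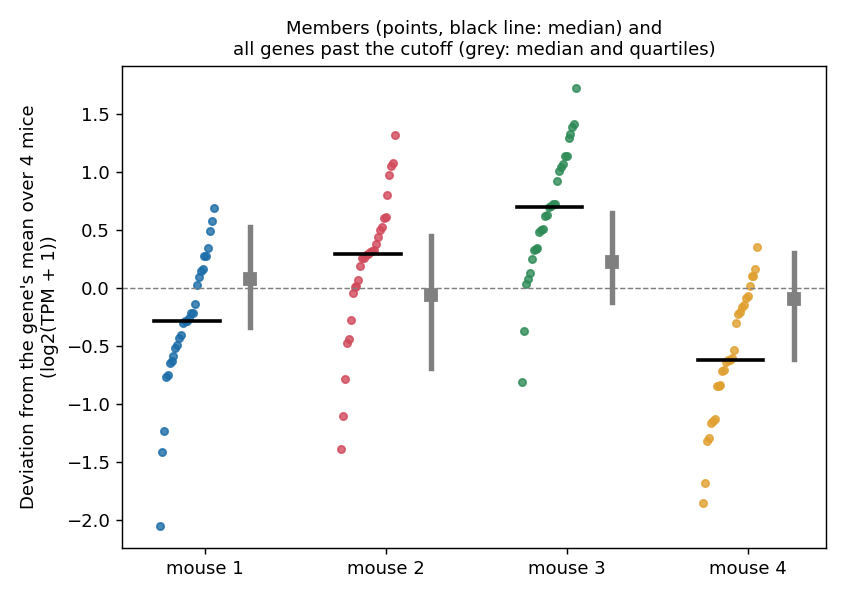
Deviation of each of the 29 genes past the cutoff from its mean over the 4 mice, in log2(TPM + 1), by mouse. Points are genes sorted by value, black lines their medians (-0.28, 0.29, 0.70 and -0.62), and grey squares with bars the median and quartiles of all genes past the cutoff, and the points of mouse 3 lie mostly above 0 and those of mouse 4 mostly below.

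Mice 1 and 3, with totals of 43545349 and 42747050 counts, had summed levels of 3595 and 8164 TPM, and mice 2 and 4, with totals of 26050230 and 22738604 counts, had 6084 and 3301 TPM. Erythroid markers (Hba-a1, Hbb-bs and Alas2, all 3 past the cutoff) summed to 3725, 21.1, 1298 and 270.03 TPM. The macrophage genes Adgre1, Csf1r and C1qa were at 0 counts in every mouse, and Cd68 alone gave 0.497, 0, 6.63 and 0.385 TPM. Neutrophil markers, with 2 of 5 past the cutoff and Ltf at 0, summed to between 4.09 and 30.7 TPM and were lowest in mouse 3. The endothelial list was at most 1.12 TPM with Cdh5 and Kdr at 0, the megakaryocyte list at most 7.95 TPM with Itga2b at 0, and the lymphocyte list at most 1.46 TPM with Cd3e and Cd3d at 0. The 6 niche genes summed to 1067, 4644, 2387 and 1243 TPM, highest in mouse 2. Of the osteoblast markers, Bglap, which made up most of their sum, had 96604, 119827, 55668 and 156730 TPM and was lowest in mouse 3. Ibsp had 11147, 13101, 20907 and 10570 TPM and was highest in mouse 3 and lowest in mouse 4. Alpl was also highest in mouse 3, and Sp7 was highest in mouse 1 and lowest in mouse 4. The part of depth and of these cell types in the result was not tested.

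The kinases and factors that act upstream of immediate-early genes were lower. Their sum varied less, but this does not hold for the single genes. By gene the CV ran from 27.4% for Creb1 to 128% for Srf, beside 10.5% to 95.9% for the 29 immediate-early genes past the cutoff. Of 15 summarised, 13 passed the cutoff, beside 44.2% of protein-coding genes. The 15 summed to 125, 120.1, 134 and 99.5 TPM, or 119.7 ± 14.7 TPM (SD, n = 4). The 2 highest of these by median were Mapk3 (ERK1), with a mean of 22.6 ± 11.7 TPM, and Mapk14 (p38), with a mean of 25.4 ± 25.05 TPM, and the 2 lowest were Mrtfb at 0.681 ± 0.523 TPM and Rps6ka1 at 0.216 ± 0.254 TPM. Srf, whose protein binds the CArG box, had 30.2, 0, 4.04 and 7.86 TPM. The library of mouse 2, with 0 counts of Srf, had the fewest genes with a count, and Tbp had 2 counts there. A failure to capture the mRNA and its absence cannot be told apart in that library, and protein was not measured. The negative regulators of ERK signalling outside the group passed in 5 of 7 cases, beside 44.2% of protein-coding genes. They summed to 37.6, 143, 103 and 61.6 TPM. Spry1, with 8.59, 67.7, 16.8 and 36.2 TPM, and Dusp6, the cytoplasmic ERK phosphatase, with 14.3, 36.4, 67.7 and 10.6 TPM, were the highest. Spry2 and Dusp4 were the lowest, and Dusp4 had 2 counts in mouse 3 and 0 elsewhere.

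Of 29 other early-response genes, 24 passed the cutoff, beside 44.2% of protein-coding genes. Highest in mouse 3 were 13 of the 29, and 10 in mouse 2, beside 29.7% and 26.1% of all genes past the cutoff. The 13 include Arc, Npas4, Csrnp1 and Plk3, which were below the cutoff, so the excess in mouse 3 rests partly on genes near 0. The 29 genes summed to 5430, 4105, 7132 and 3694 TPM, so mouse 3 was again highest, but mouse 1 stood above mouse 2. Id3 and Ccn1 made up most of the sum in each mouse. Id3, a BMP target, had the highest median, 2733 TPM, and a mean of 2775 ± 484 TPM. Next was Ccn1, a matricellular protein induced by serum and by YAP, with 1381, 802, 2650 and 798 TPM. The lowest were Arc, an early gene known from neurons, with 0, 0, 200 and 0 counts, and Plk3, a stress-responsive polo-like kinase, with 0, 0, 37 and 1 counts. Both thus rested on mouse 3, as Dusp2 and Dusp5 did.

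The heat shock list, a separate arm of the stress response, passed the cutoff in 14 of 14 cases, beside 44.2% of protein-coding genes. It summed to 2993, 5443, 3974 and 2735 TPM. Highest in mouse 2 were 11 of the 14, beside 26.1% of all genes past the cutoff. The constitutive chaperones Hspa8, at 1048 ± 290.3 TPM, and Hspa5, at 955 ± 366 TPM, were the highest. The lowest were Hspa1b, an inducible HSP70 gene, with 5.15, 11.5, 0.0413 and 1.14 TPM, and Hsph1, a co-chaperone of HSP70, with 15.4, 22.5, 9.08 and 0.972 TPM. Hspa1a, the close copy of Hspa1b, had 33.8, 54.1, 6.53 and 0.0326 TPM, and how unique mapping divided reads between the pair is uncertain. All 3 were highest in mouse 2 and lower in mouse 3 than in mouse 1, whereas Fos, Jun and Atf3 were highest in mouse 3. The list was not uniform, since 2 of its genes, Dnajb1 and Hspd1, were highest in mouse 3. Dnajb1 had 39.4, 174, 182 and 79.1 TPM.

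The sum of the NF-kB targets outside the group was also highest in mouse 2. Of 10 listed, 7 passed the cutoff and 2 were above 1 TPM in every mouse, beside 44.2% and 30.1% of protein-coding genes. The 10 summed to 56.7, 877, 51.5 and 190.2 TPM, and Ccl2, Ccl7 and Cxcl1 made up most of the sum in mouse 2. Highest in mouse 2 were 7 of the 10, Il6 with 1 count among them, beside 26.1% of all genes past the cutoff. Relb went the other way, with 5.62, 0.902, 4.23 and 5.90 TPM. Cxcl1, a further chemokine, had 12.4, 115, 0 and 0.0516 TPM. Ccl2, a monocyte chemokine, had 15.98, 398, 25.9 and 143.5 TPM, and Ccl7, its neighbour in the chemokine family, had 0, 322, 0 and 23.6 TPM. Nfkbiz, a nuclear relative of IkBa, was steadier, with 15.2, 24.8, 17.4 and 15.4 TPM. Nfkbia and Gadd45b, the NF-kB targets named above, were likewise highest in mouse 2, while Ier3 was highest in mouse 3. Il6 and Cxcl2 had 1 count each over the 4 mice, and Lif had 0 counts in every mouse. Of the housekeeping genes, 8 of 8 passed the cutoff and 7 were above 1 TPM in every mouse, and they summed to 25458, 28862, 30958 and 22552 TPM. Most of this sum was B2m, at 21346 ± 3909 TPM (mean ± SD, n = 4), followed by Rplp0 at 3847 ± 494 TPM. The lowest were Hprt at 117 ± 20.4 TPM and Tbp with 4.47, 0.0132, 4.46 and 1.77 TPM.

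**Figure D5:**
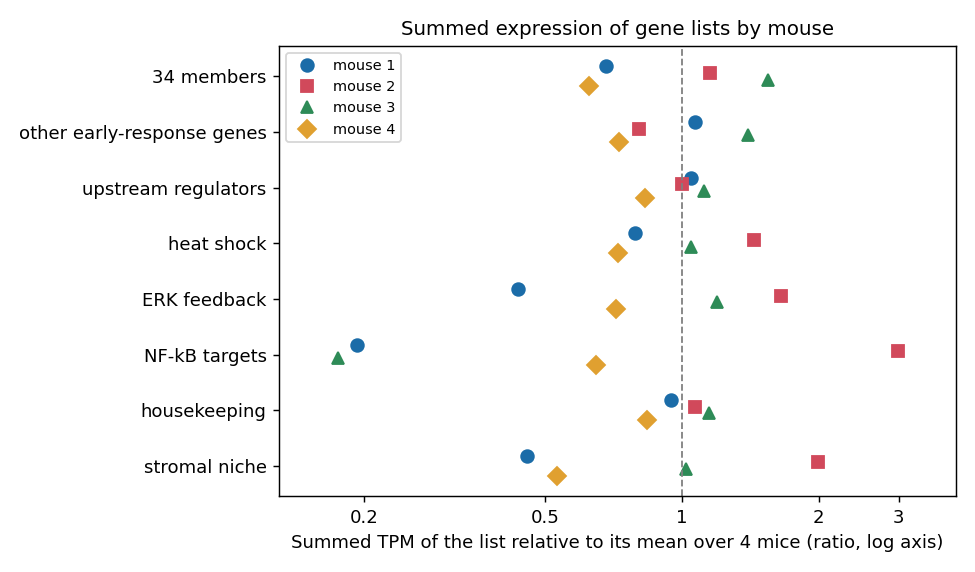
Summed TPM of each gene list in each mouse, divided by the mean of that list over the 4 mice, on a log axis. Each symbol is 1 mouse. The 34 immediate-early genes and the other early-response genes were highest in mouse 3 (8164 and 7132 TPM), and the heat shock genes and NF-kB targets were highest in mouse 2 (5443 and 877 TPM).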

How the data were processed

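Paired reads were mapped by the authors with STAR 2.7.10 on GRCm39, and they counted uniquely mapped pairs on Ensembl genes with featureCounts 1.6.5, with no strand option given, and deposited raw counts per gene and mouse. A second pipeline is named in the main methods, and the description specific to MSCs was used. Columns were joined to mice by their names. TPM was computed with merged exon lengths of GENCODE M21 on GRCm38, joined by Ensembl identifier, and 4855 genes without a length were left out, so a gene whose exons changed between annotations has a shifted TPM. Other lengths, TMM factors (edgeR 4.0.16), size factors (DESeq2 1.42.0), other denominators, a pseudocount of 0.1, at least 10 counts per mouse and the omission of single mice were tried. The TMM and size factors were estimated on counts and then applied to TPM. BLAST 2.17.0 searched near-identical copies at 95% identity over at least 100 bases. The code (Python 3.11.15, scipy 1.17.1) was tested on simulated data. All 34 genes were named, and each context list by its 2 highest and 2 lowest genes and those the text turns on. Some listed genes are not reported here and were left out of the list totals. The genes and lists were chosen with earlier results of these data known. Limits given for 3 counts cover counting error only, since PCR copies are not independent molecules.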

Additional observations from a re-analysis of the deposited data

Results flagged for a closer look

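For 5 of the 45 values examined, a single mouse lay far from the rest: the distance to the closest mouse, divided by the full range, exceeded the 95% limit of Dixon for 4 samples. About 1 in 20 values, here 2.25, would do so by chance. Klf2 was low in mouse 2, where it had 42.8 TPM while the others had 64.1 to 65.6 TPM (ratio 0.933). The summed NF-kB targets were high in that mouse, with 877 TPM beside values from 51.5 to 190.2 TPM elsewhere (ratio 0.832). The other three values rest on few counts. Maff reached 89 counts in mouse 2 and no more than 6 elsewhere (ratio 0.952). Dusp2 was counted 50 times in mouse 3 and nowhere else (ratio 1), and Dusp5 was counted 51 times in mouse 3 and once in mouse 1 (ratio 0.981).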

How the results depend on the processing

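The 29 genes past the cutoff remained 29 in number under all 11 alternatives, and 24 to 27 had a median above 10 TPM. Above 1 TPM in every mouse were 26 to 28, the higher number without mouse 1. The summed TPM, 5286, was 8261 without the 10 highest genes in the denominator, 3667 without Fos, a setting chosen after seeing the data, and between 4327 and 5948 when each mouse was left out. The difference of Btg2 minus Btg1 turned to -0.070 when counts were scaled by library size without a length. That setting also changed the denominator, which took in the genes without a length. The difference lay between 0.55 and 1.46 when each mouse was left out, lowest without mouse 1 and highest without mouse 2. The other 8 pairs kept their direction under every alternative run, with Fos minus Fosb between 3.92 and 5.44 and Jund minus Junb between -3.89 and -2.496. The unshared exonic length was chosen after seeing the data. The median deviation kept its sign in each mouse, from -0.48 to -0.11 in mouse 1, 0.11 to 0.48 in mouse 2, 0.49 to 0.81 in mouse 3 and -0.79 to -0.31 in mouse 4. It was nearest 0 in mice 1 and 4 without mouse 3, and in mice 2 and 3 without mouse 4. With another scaling or length, 18 to 20 genes were highest in mouse 3. Where a library had 0 counts, the limit that 3 counts allow covers counting error alone. A failure to capture the mRNA remains possible, so the level may lie above that limit. No paired analysis was possible because all libraries belong to 1 group, so no samples of different groups could be paired.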
